A study of Homo sapiens with 12 samples.

Results

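The ERBB genes described here are 4 receptors (*EGFR*, *ERBB2*, *ERBB3* and *ERBB4*) and 6 ligands of the EGF family (*AREG*, *EREG*, *HBEGF*, *TGFA*, *BTC* and *NRG1*). They were chosen by gene symbol, with earlier results of these data known, and all 10 were found among the 58302 gene identifiers of the count table. RNA was sequenced from MIB1-iKO cells, a single-cell clone of the lung cancer line NCIH838 that carries doxycycline (Dox)-inducible Cas9 and a guide RNA against *MIB1*, which encodes an E3 ubiquitin ligase. For 3 days, every culture was kept in LDN (50 nmol/L), which blocks BMP receptor kinases, and the KO cultures also in Dox (0.5 μg/mL) while the WT cultures had none. BMP4 (10 ng/mL) was then given to every culture for 24 hours, together with LDN in the BMP-off groups and with DMSO instead of LDN in the BMP-on groups. This gave 4 groups of 3 libraries. Every KO library and no WT library had Dox, so effects of Dox or Cas9 and of *MIB1* loss cannot be told apart. All groups had BMP4, and BMP-on and BMP-off differ by LDN in the last 24 hours. Effects of BMP signaling and other effects of LDN therefore cannot be told apart either.

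ERBB receptors are tyrosine kinases that pair with each other after a ligand binds. EGFR binds EGF, amphiregulin (AREG) and transforming growth factor alpha (TGFA), whereas ERBB3 and ERBB4 bind neuregulins, and betacellulin, epiregulin and HB-EGF can bind both EGFR and ERBB4. ERBB2 has no known ligand and acts as a partner, and ERBB3 has little kinase activity of its own and recruits PI3 kinase. The ligands are made as membrane proteins and released by metalloproteases, and the receptors feed the RAS and ERK and the PI3 kinase and AKT pathways, which drive growth of many lung cancers.

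Total counts ranged from 19124010 to 29498000 per library, and 17188 genes had enough counts to be tested. *MIB1* itself followed the labels, at 144 to 176 CPM (counts scaled to a common library total) in WT libraries and 31.0 to 34.4 CPM in KO libraries, with log2 fold changes of -2.23 (BMP-off) and -2.34 (BMP-on). All 8 BMP target genes listed as a check of the treatment rose in BMP-on cells of either genotype. Of 5 epithelial markers, 4 were above 1 CPM in every group, while *KRT19* stayed at or below 0.104 CPM. The summed CPM of 5 fibroblast markers, mostly *COL1A1*, was 12.6 to 22.1 in BMP-off libraries and 30.5 to 43.5 in BMP-on libraries, with *COL1A2* and *DCN* near 0. The summed level of 4 endothelial markers stayed between 0.522 and 1.81 CPM and that of 5 leukocyte markers between 0.633 and 1.20 CPM, and *PTPRC* had no count in any library. The epithelial marker *EPCAM* fell with BMP in both WT cells (log2 fold change -0.56) and KO cells (-0.61). In KO cells *KRT8*, *COL1A1* and *PDGFRB* rose, with log2 fold changes of 0.61, 1.39 and 0.92, and *CDH5*, at most 0.503 CPM in any library, fell, all with an adjusted p of at most 0.0316 by edgeR. The part of these marker changes in the results below was not tested.

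BMP receptors signal through SMAD transcription factors, so promoters were searched for their motifs. Binding of SMADs to these genes was not measured. Promoter sequences from RefSeq (GRCh38.p14), 250 bases before to 50 after a start site, were found for 8 of the 9 members looked up, with 10 promoters in all, and none was found for *ERBB3*. The letters GGCGCC, the core of the BMP response element, were searched on both strands. They are shown in capitals in the stretches before the start sites of *EGFR* and *TGFA*, whose transcripts fell with BMP in KO cells, and of *HBEGF*, the ligand with the highest level. The stretches are chr7:55018767-55019016 on the plus strand, chr5:140346604-140346853 on the minus strand and chr2:70553827-70553856 on the minus strand, each 5′ to 3′. Those of *EGFR* and *HBEGF* show 250 bases, and that of *TGFA* shows only 30 bases around its match.
EGFR: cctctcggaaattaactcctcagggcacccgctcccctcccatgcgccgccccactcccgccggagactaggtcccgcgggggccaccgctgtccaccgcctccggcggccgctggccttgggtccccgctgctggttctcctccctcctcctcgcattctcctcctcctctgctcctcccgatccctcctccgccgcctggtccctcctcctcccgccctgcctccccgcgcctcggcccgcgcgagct
HBEGF: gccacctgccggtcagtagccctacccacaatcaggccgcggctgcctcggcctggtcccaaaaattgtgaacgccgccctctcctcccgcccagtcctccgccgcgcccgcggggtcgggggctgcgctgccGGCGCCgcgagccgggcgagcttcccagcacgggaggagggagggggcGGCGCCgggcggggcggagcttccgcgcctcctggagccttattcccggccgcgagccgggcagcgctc
TGFA: ttttcccccgcaccgcGGCGCCgctccgcc

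The *HBEGF* stretch held GGCGCC at 2 places, beginning 117 and 69 bases before the start site. The *TGFA* stretch held it once, 14 bases before a RefSeq start site. In GENCODE *TGFA* reaches to 70554193 on the minus strand, so this stretch lies inside the gene position given below. The *EGFR* stretch held none, and no match says only that these letters are absent from this window. GGCGCC occurred in 19.2% of all 35116 promoters in the table. The SMAD binding element CAGAC occurred in 45.3%, the cyclic AMP response element TGACGTCA in 1.85% and the AP-1 site TGANTCA in 7.71%. The *AREG* promoter held 1 match each of GGCGCC, TGACGTCA and CAGAC. A second *EGFR* promoter held 2 AP-1 sites and 1 CAGAC match on the reverse strand. Over its whole window the first *TGFA* promoter held 1 GGCGCC and 1 CAGAC match, and a second *TGFA* promoter held 1 GGCGCC and 2 CAGAC matches.

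Levels between genes were compared per length, in RPKM (reads scaled by gene length and library total) as deposited. *ERBB2* had the highest level, with a mean of 23.5 RPKM and a range of 18.4 to 27.1 over the 12 libraries. *EGFR* followed at 9.26 RPKM (7.42 to 11.2) and *HBEGF* at 6.97 RPKM (5.77 to 8.50). *ERBB2* lay above *EGFR* in 12 of 12 libraries and *EGFR* above *HBEGF* in 11 of 12, although the ranges of *EGFR* and *HBEGF* overlap.

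*ERBB3* averaged 1.94 RPKM (1.12 to 2.81), *AREG* 0.861 RPKM (0.485 to 1.40) and *TGFA* 0.273 RPKM (0.123 to 0.386), and in each of the 12 libraries these 3 kept this order. The other members were at or near 0. *ERBB4* had no count in any of the 12 libraries, which allows a level of up to 0.103 to 0.157 CPM per library (3 counts, counting error only). *EREG* had 5 counts over all 12 libraries, *BTC* 3 and *NRG1* 23, with at most 1, 2 and 5 counts in a library. These 4 genes were too low to be tested.

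**Figure D1:**
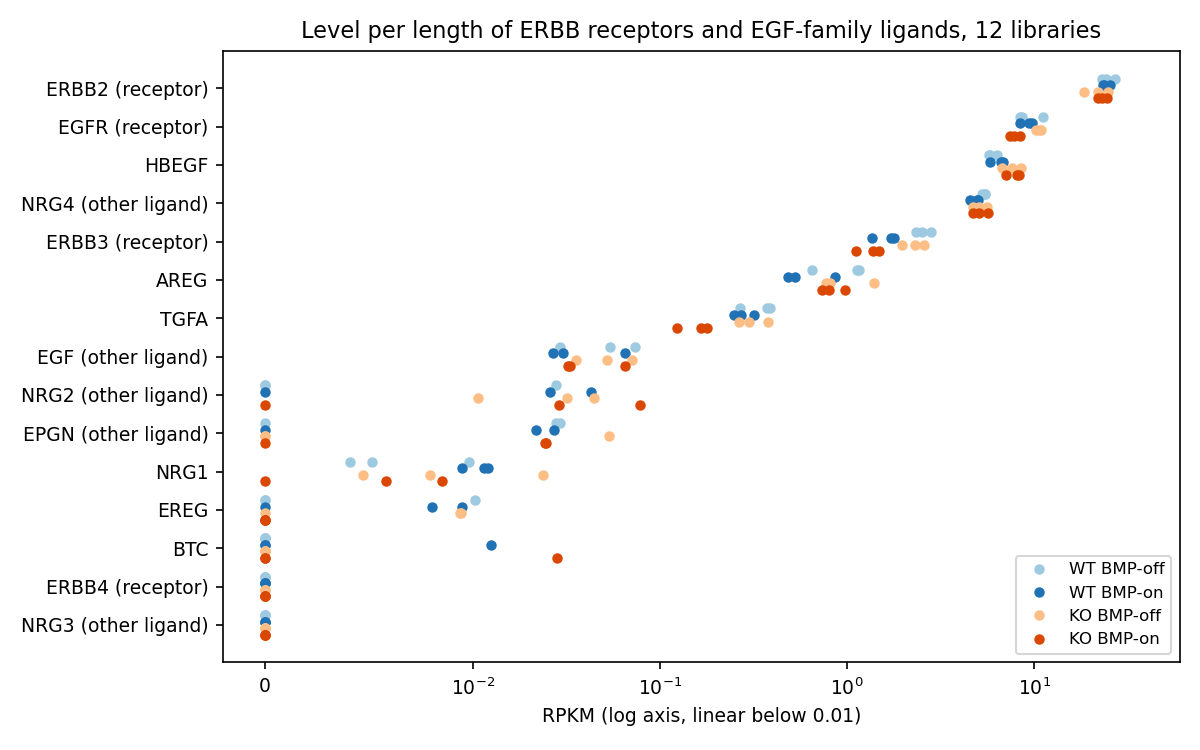
RPKM of the 10 ERBB genes and 5 other EGF-family ligands, on a log axis that is linear below 0.01, with 1 point per library colored by group. *ERBB2*, *EGFR* and *HBEGF* lie above 5 RPKM in all 12 libraries, and *ERBB4* and *NRG3* lie at 0 in all of them.

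Of 5 EGF-family ligands outside the chosen set, *NRG4*, a neuregulin that binds ERBB4, was the only one tested, at 4.57 to 5.66 RPKM. *EGF* had 68 counts over the 12 libraries, *NRG2* 30, *EPGN* 8 and *NRG3* 0. *HBEGF* and *NRG4* together made up 86.9% to 93.1% of the summed RPKM of all these ligands in a library. *ERBB4*, its receptor, had no count.

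Of the 10 members, 6 were tested: *EGFR*, *ERBB2*, *ERBB3*, *AREG*, *HBEGF* and *TGFA*. Per-library values are CPM scaled by trimmed mean of M values, given in the order of replicates 1, 2 and 3, an order that the labels do not explain. Fold changes and adjusted p-values come from edgeR's quasi-likelihood test over all 17188 genes with Benjamini-Hochberg adjustment, and SE is the standard error on the log2 scale. The labels do not say that replicates came from separate cultures, so p-values measure only the spread between these samples. In bulk RNA, fewer cells with a transcript and less of it per cell cannot be told apart.

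The first question was how the ERBB genes differed between BMP-on and BMP-off cells, which is called the response to BMP here. In WT cells, 1 of 6 tested members passed an adjusted p of 0.05, *ERBB3*, and it fell (2.01% of all tested genes fell and 1.91% rose). In KO cells, 3 of 6 passed and all 3 fell, *ERBB3*, *EGFR* and *TGFA* (10.9% of all tested genes fell and 11.1% rose). No member reached both that threshold and an absolute log2 fold change of 1 in any comparison. The median log2 fold change of the 6 was -0.15 in WT cells and -0.28 in KO cells, beside 0.0016 and 0.0056 over all tested genes. Since the members were chosen with earlier results known, these counts and medians beside those of all genes are description only.

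*ERBB3* (ENSG00000065361, plus strand of chromosome 12, 56076799 to 56103505, GRCh38) measured 17.6, 16.7 and 19.96 CPM in WT BMP-off libraries and 9.70, 12.9 and 12.3 CPM in WT BMP-on libraries. In KO cells it measured 13.9, 15.8 and 18.5 CPM with BMP-off and 10.0, 8.10 and 10.6 CPM with BMP-on. Every BMP-on library lay below every BMP-off library, whichever the genotype. *ERBB3* fell by 0.63 on the log2 scale (SE 0.13, adjusted p = 0.00872 by edgeR) in WT cells, a level 64.2% of BMP-off, and by 0.73 (SE 0.13, adjusted p = 0.0010) in KO cells, a level 59.7% of BMP-off. The difference between the responses was -0.10 (95% interval -0.49 to 0.29, adjusted p = 0.852 by edgeR). Both calls held without each library in turn, with adjusted p of at most 0.0423 in WT and 0.0065 in KO cells. The WT call was lost only with log2(RPKM + 1) values and no filter (adjusted p = 0.0834 by limma). *ERBB3* shares 1 exon with a gene on the same strand, ENSG00000257411, which had 1 count in all 12 libraries together.

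*EGFR* (ENSG00000146648, plus strand of chromosome 7, 55019017 to 55211628) measured 119.7, 91.9 and 93.8 CPM in WT BMP-off libraries and 106.1, 103 and 92.9 CPM in WT BMP-on libraries, which overlap. In KO cells it measured 114, 115 and 111 CPM with BMP-off and 82.1, 92.5 and 85.9 CPM with BMP-on, and these do not overlap. *EGFR* fell with BMP by 0.39 on the log2 scale (SE 0.088, adjusted p = 0.00695 by edgeR) in KO cells, a level 76.6% of BMP-off. In WT cells its log2 fold change was -0.016 (95% interval -0.20 to 0.17, adjusted p = 0.953). The test of the difference between these responses gave -0.37 (SE 0.12, adjusted p = 0.319 by edgeR), so the responses of WT and KO cells are not shown to differ.

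The call of that difference changed in 2 of the alternatives. WT BMP-off replicate 1 had the highest *EGFR* level of all 12, and without it the difference was -0.52 with an adjusted p of 0.0132 by edgeR. With all libraries and no filter on low counts it was -0.37 with an adjusted p of 0.00268. The KO response itself passed in all 25 alternatives tried, with log2 fold changes of -0.43 to -0.35. *EGFR* shares exonic positions with the antisense gene *EGFR-AS1*, and whether the counting used strand was not stated in the sources used here.

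*TGFA* (ENSG00000163235, minus strand of chromosome 2, 70447284 to 70554193), a ligand of EGFR, was counted at 15 to 47 reads per library. It measured 1.69, 1.78 and 1.23 CPM in WT BMP-off libraries and 1.48, 1.16 and 1.26 CPM in WT BMP-on libraries, which overlap. In KO cells it measured 1.36, 1.69 and 1.22 CPM with BMP-off and 0.575, 0.836 and 0.777 CPM with BMP-on. All 3 KO BMP-on libraries lay below the other 9. In KO cells the log2 fold change with BMP was -0.98 (SE 0.24, adjusted p = 0.00743 by edgeR), and in WT cells it was -0.29 (SE 0.20, adjusted p = 0.564). The difference between the responses was -0.69 (SE 0.31, adjusted p = 0.456 by edgeR), so they are not shown to differ. Without KO BMP-on replicate 1, the lowest library, the KO response was -0.83 with an adjusted p of 0.0506. It was also lost with log2(RPKM + 1) values, at -0.18 (adjusted p = 0.0576 by limma), a scale that understates changes at such low levels.

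**Figure D2:**
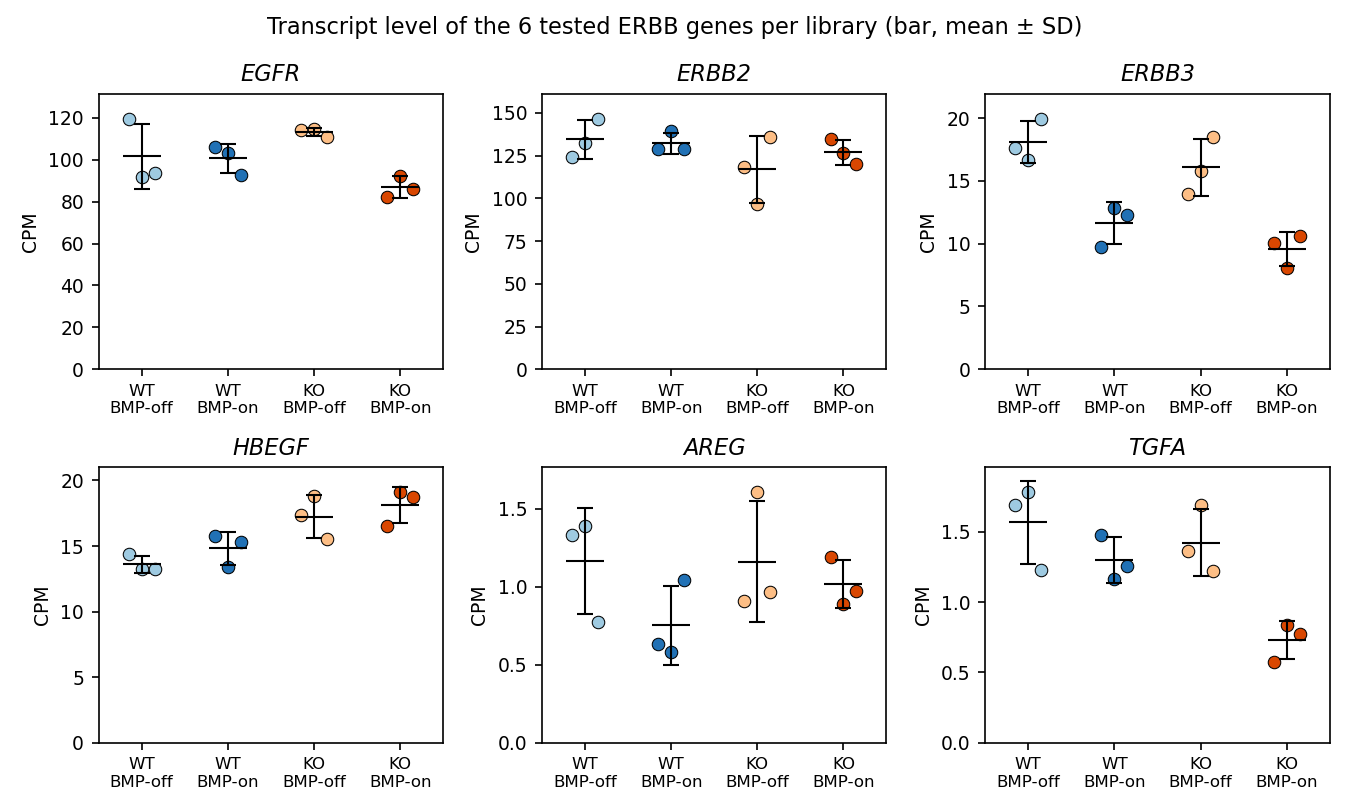
CPM of the 6 tested ERBB genes in the 4 groups, with 1 point per library and the mean ± SD of 3 libraries, on axes that start at 0. *ERBB3* is lower in every BMP-on library, *TGFA* is lowest in the 3 KO BMP-on libraries, and *EGFR* is lower in these 3 than in the KO BMP-off libraries.

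*ERBB2* (ENSG00000141736, plus strand of chromosome 17, 39687914 to 39730426) measured 124, 133 and 147 CPM in WT BMP-off libraries and 129, 139 and 129 CPM in WT BMP-on libraries. In KO cells it measured 118, 96.6 and 136 CPM with BMP-off and 135, 127 and 120.0 CPM with BMP-on. The groups overlap for either genotype. With BMP its log2 fold change was -0.023 (95% interval -0.25 to 0.20) in WT cells and 0.12 (-0.11 to 0.35) in KO cells, with adjusted p of 0.945 and 0.448 by edgeR.

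The longest *ERBB2* transcript has a GC content of 57.5%, and the libraries differed in GC bias. KO BMP-off replicate 2, the library with the lowest *ERBB2* level, had the most negative correlation between gene GC content and deviation from the group mean (-0.603), and KO BMP-off replicate 3 the most positive (0.586). With a GC correction the KO response was -0.042 (adjusted p = 0.561 by edgeR), and without KO BMP-off replicate 3 it was 0.23 (adjusted p = 0.0444). The part of GC bias in the *ERBB2* values was not tested. *ERBB2* also overlaps exons of the antisense genes *PGAP3* and *MIEN1*. These had 3736 and 12042 counts over all 12 libraries, beside 38487 for *ERBB2*. Whether the counting used strand was not stated, and the part of this overlap in the level and share of *ERBB2* was not tested.

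*HBEGF* (ENSG00000113070, minus strand of chromosome 5, 140332843 to 140346603), which encodes the ligand HB-EGF, measured 14.4, 13.3 and 13.2 CPM in WT BMP-off libraries and 15.7, 13.4 and 15.3 CPM in WT BMP-on libraries. In KO cells it measured 17.4, 18.8 and 15.6 CPM with BMP-off and 16.6, 19.1 and 18.7 CPM with BMP-on. The BMP-on and BMP-off groups overlap for either genotype. With BMP the log2 fold change of *HBEGF* was 0.12 (95% interval -0.080 to 0.31) in WT cells and 0.069 (-0.12 to 0.26) in KO cells, with adjusted p of 0.611 and 0.631 by edgeR.

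*AREG* (ENSG00000109321, plus strand of chromosome 4, 74445136 to 74455005), which encodes amphiregulin, was counted at 15 to 40 reads per library. It measured 1.33, 1.39 and 0.773 CPM in WT BMP-off libraries and 0.633, 0.582 and 1.04 CPM in WT BMP-on libraries. In KO cells it measured 0.907, 1.61 and 0.968 CPM with BMP-off and 1.19, 0.888 and 0.971 CPM with BMP-on. The groups overlap, with replicate 3 the low library of WT BMP-off and replicate 2 the high library of KO BMP-off. The log2 fold change with BMP was -0.64 (95% interval -1.28 to 0.0085) in WT cells and -0.17 (-0.79 to 0.45) in KO cells, with adjusted p of 0.337 and 0.725 by edgeR. Both intervals include the log2 fold change of *ERBB3*, so at this depth a change of that size could be neither seen nor set aside.

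The second question was whether *MIB1* KO changed ERBB genes at a fixed BMP state. With BMP-on, 0 of 6 tested members passed (1.32% of all tested genes were higher in KO cells and 2.34% lower), and 3 of the 6 had an unadjusted p under 0.05, as had 13.8% of all tested genes. With BMP-off, 0 of 6 passed (0.00582% of all tested genes were higher and 0.0349% lower), and 1 had an unadjusted p under 0.05, as had 10.2% of all tested genes. These comparisons share libraries with the BMP responses above, so their values are not separate evidence.

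*HBEGF* was the member with the same direction and no overlap in both BMP states, but it passed in neither. How many of all tested genes also lack overlap was not computed. Each KO library lay above each WT library of the same BMP state, and all 6 KO libraries (15.6 to 19.1 CPM) were above 5 of the 6 WT libraries. Its log2 fold change was 0.34 (95% interval 0.14 to 0.53, adjusted p = 0.303 by edgeR) with BMP-off and 0.29 (0.097 to 0.48, adjusted p = 0.109) with BMP-on. With BMP-on it passed in 2 of 25 alternatives, with about the same fold change. These were the GC correction (adjusted p = 0.0376 by edgeR) and the fit of only the 2 groups compared (0.0325). With BMP-off it passed in 1 of 25 alternatives, without a filter on low counts (0.34, adjusted p = 0.0449 by edgeR).

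With BMP-on, *TGFA* had a log2 fold change of -0.84 (95% interval -1.34 to -0.33, adjusted p = 0.0696 by edgeR) and *EGFR* one of -0.22 (-0.41 to -0.027, adjusted p = 0.272). The KO and WT libraries of either gene do not overlap, but neither gene passed, and the share of all tested genes without overlap was not computed. *TGFA* passed in 4 of 25 alternatives. These were the GC correction (adjusted p = 0.0361 by edgeR), the replicate block with GC correction (0.0487), only the 2 groups fitted (0.0417) and without KO BMP-off replicate 2 (0.0490). *EGFR* passed in 3 of 25 alternatives: with only the 2 groups fitted (0.0144), without a filter on low counts (0.00779) and without WT BMP-off replicate 1 (0.0460). *ERBB3*, *ERBB2* and *AREG* had log2 fold changes of -0.27, -0.058 and 0.44 with adjusted p of at least 0.397. With BMP-off the log2 fold changes were 0.15 for *EGFR*, -0.15 for *TGFA*, -0.17 for *ERBB3*, -0.20 for *ERBB2* and -0.029 for *AREG*, with adjusted p of at least 0.536 by edgeR, so the sign for *EGFR* and *AREG* differed between the BMP states.

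**Figure D3:**
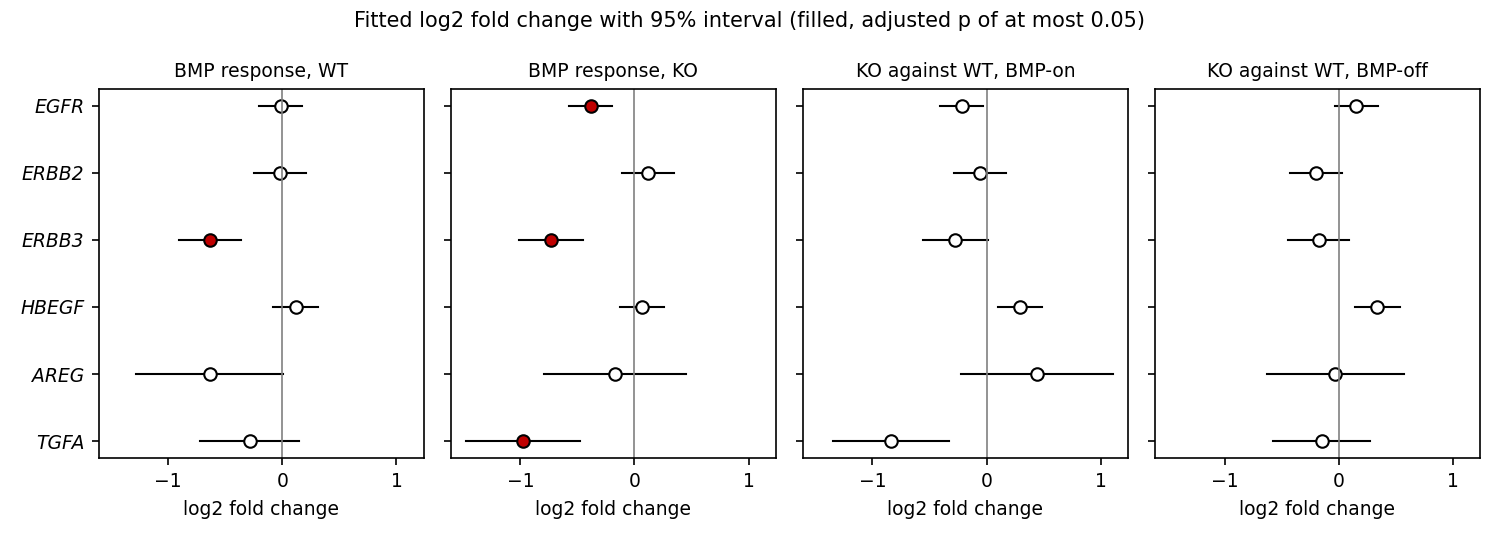
Log2 fold change of the 6 tested ERBB genes in 4 comparisons, fitted by edgeR, with the 95% interval as a line and a filled point where the adjusted p was at most 0.05. Filled points are *ERBB3* in WT cells and *ERBB3*, *EGFR* and *TGFA* in KO cells, all below 0.

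The third question was whether the BMP response differed between KO and WT cells. Of the 6 tested members, 0 passed the test of the difference, against 0.0931% of all tested genes, and 2, *EGFR* and *TGFA*, had an unadjusted p under 0.05, as had 10.6% of all tested genes. The differences for *ERBB2*, *HBEGF* and *AREG* were 0.14, -0.048 and 0.47 with adjusted p of at least 0.684 by edgeR.

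In the summed RPKM of the receptors, *ERBB2* made up 67.5% ± 4.01 (SD, n = 3) in WT BMP-off, 69.1% ± 0.872 in WT BMP-on, 62.7% ± 4.06 in KO BMP-off and 71.4% ± 1.76 in KO BMP-on libraries. *ERBB3* made up 6.92% ± 0.330, 4.63% ± 0.631, 6.61% ± 0.806 and 4.12% ± 0.648 of it in the same order. The *ERBB3* share was thus lower in each BMP-on library, at most 5.09%, than in each BMP-off library, at least 5.71%. These are shares of RNA and not of receptor protein.

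Genes that act on the ligands changed in both directions with BMP in KO cells. The counts of this list and the 3 that follow stand beside 22% of all tested genes that passed in KO cells (11.1% higher, 10.9% lower) and 3.92% in WT cells (1.91% higher, 2.01% lower). These counts are description only, since the lists were chosen with earlier results of these data known. Of 8 genes for ligand shedding and maturation, 3 rose and 2 fell in KO cells and 0 passed in WT cells. The KO median was 0.044 on the log2 scale. *RHBDF2* and *RHBDF1*, which encode the iRhom partners of ADAM17, rose from 11.3 ± 2.51 to 17.4 ± 1.40 CPM and from 10.5 ± 2.09 to 16.9 ± 0.544 CPM (SD, n = 3), with adjusted p of 0.0024 and 0.00612 by edgeR. *ADAM17*, the main protease that releases AREG, TGFA and HB-EGF, fell from 149.8 ± 4.52 to 131 ± 3.95 CPM (adjusted p = 0.00401 by edgeR). The count of 5 dropped to 3 with a GC correction and without KO BMP-off replicate 2, KO BMP-on replicate 1 or KO BMP-on replicate 2.

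Of 25 receptor adaptors and signaling genes, 3 rose and 1 fell in KO cells, a median log2 fold change of 0.12, and 0 passed in WT cells. The KO share of 16% lay below that of all tested genes. *SHC1*, an adaptor that links the receptors to RAS, rose by a log2 fold change of 0.22, the kinase *ARAF* rose by 0.26, and *GAB1*, a docking protein for PI3 kinase, had a log2 fold change of -0.29. Their adjusted p-values were 0.00821, 0.0132 and 0.0224 by edgeR. This count was 12 without KO BMP-off replicate 3, 1 without KO BMP-on replicate 1 and 2 without KO BMP-on replicate 2. It was 2 with only the 2 groups fitted and 0 with log2(RPKM + 1) values and no filter.

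Of 15 tested genes for receptor turnover and negative regulation, 2 rose and 0 fell in WT cells, and 3 rose and 3 fell in KO cells. *SH3KBP1*, which encodes a CBL partner in EGFR endocytosis, rose in both, with log2 fold changes of 0.20 in WT and 0.19 in KO cells. The phosphatase gene *PTPRJ* rose in WT cells by 0.32. In KO cells the E3 ligase genes *ZNRF1* and *NEDD4L* had log2 fold changes of 0.34 and -0.27. Adjusted p-values of these calls were at most 0.0193 by edgeR. The WT count was 1 without any 1 of 5 of the 6 WT libraries, WT BMP-off replicate 1 being the exception. Over all 25 alternatives it ranged from 0 to 2, and the value of 0 came from a fit that kept every library.

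Of 20 tested genes of ERK feedback and output, 1 rose and 1 fell in WT cells, and 4 rose and 1 fell in KO cells, with medians of 0.10 and 0.11. The KO share of 25% was close to that of all tested genes. *DUSP5*, an ERK phosphatase induced by ERK, fell in both, from 38.03 ± 1.69 to 32.4 ± 0.620 CPM in WT cells (SD, n = 3) and in KO cells from 43.2 ± 0.744 to 34.5 ± 2.72 CPM. *CCND1*, encoding cyclin D1, rose in both, by 0.26 on the log2 scale in either. In KO cells *MYC* rose from 23.0 ± 2.20 to 30.4 ± 1.71 CPM and *SPRY2*, a feedback inhibitor of receptor tyrosine kinases, from 7.27 ± 0.224 to 10.7 ± 1.41 CPM.

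The adjusted p-values of these 4 genes were at most 0.00249 in KO cells by edgeR, and those of *DUSP5* and *CCND1* in WT cells at most 0.0475. With BMP-on, *MYC*, *SPRY2* and *SPRED3* were higher in KO than in WT cells by 0.31, 0.44 and 0.45 on the log2 scale, with adjusted p of 0.0228, 0.0233 and 0.0398 by edgeR. That count of 3 ranged from 0 to 3 over all 25 alternatives, including those that kept every library. It was 0 without WT BMP-on replicate 2, WT BMP-on replicate 3, KO BMP-on replicate 2 or KO BMP-on replicate 3. Without WT BMP-on replicate 1 it was 1. The WT count of 2 ranged from 0 to 3 over all 25 alternatives, including those that kept every library. It was 0 without WT BMP-off replicate 2, WT BMP-off replicate 3 or WT BMP-on replicate 1. It was 1 without WT BMP-off replicate 1, WT BMP-on replicate 2, WT BMP-on replicate 3, KO BMP-off replicate 1, KO BMP-on replicate 1 or KO BMP-on replicate 3.

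**Figure D4:**
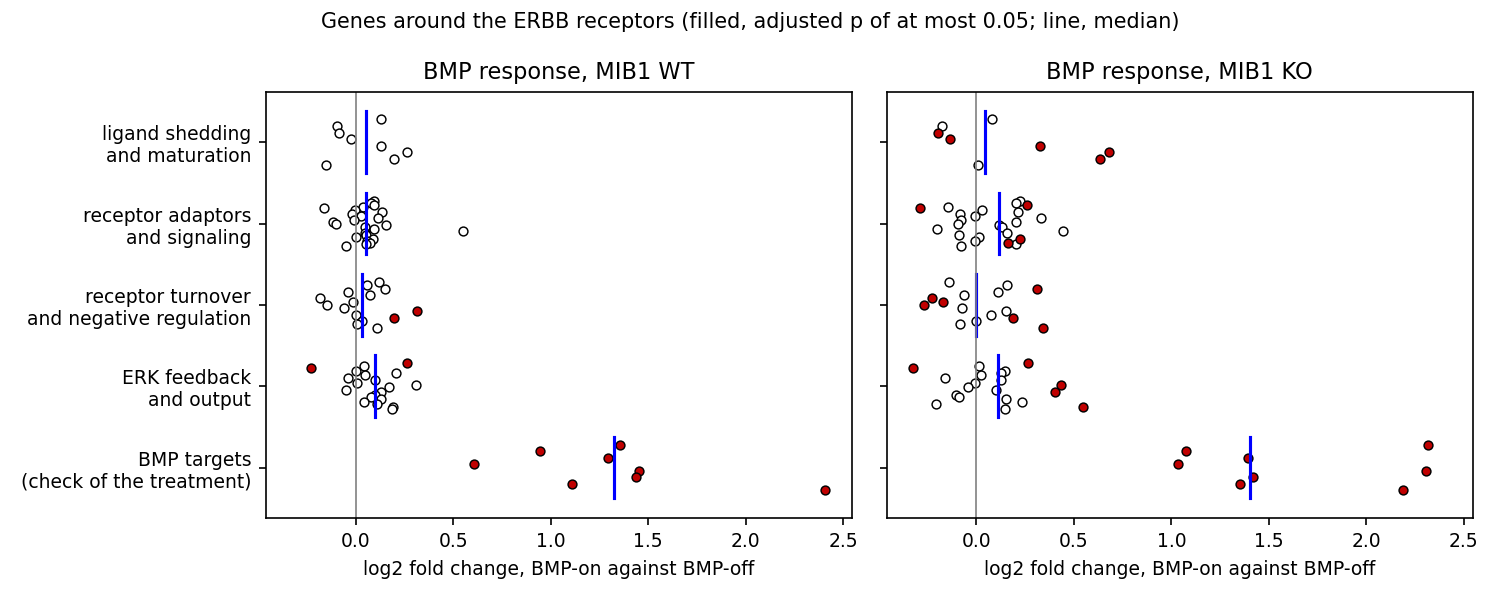
Log2 fold change with BMP of each tested gene in 4 lists around the ERBB receptors and in the BMP target list, in WT cells (left) and KO cells (right), with a filled point where the adjusted p by edgeR was at most 0.05 and a line at the median. The BMP targets have medians of 1.32 and 1.40, while the medians of the other lists lie between -0.0041 and 0.12.

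*NRG4* was not called in any comparison, with log2 fold changes of -0.14 in WT and 0.057 in KO cells. By profile over the 12 libraries (root mean square difference of centred log2 CPM), the genes most like *ERBB3* among 12837 were *PDGFRL* (0.11), *SORT1* (0.13) and *CPM* (0.14), where the SD of the *ERBB3* profile itself was 0.40. The genes most like *TGFA* were *PCLAF* (0.11), *BTNL12P* (0.12) and *MORC4* (0.13), beside an SD of 0.34. Those most like *AREG* were an unnamed gene (ENSG00000259820), *NFKBIZ* and *BEST1*, at 0.18 each beside an SD of 0.29. *AREG* and *TGFA* had means of only 25.75 and 31.7 counts per library, so counting error may make up much of their profiles. Matches picked from 12837 genes at that depth do not show whether any gene follows either of them closely.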

How the data were processed

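RNA-seq libraries were 3 per group in 4 groups. Per the authors' methods, reads left after removal of ribosomal RNA were placed on GRCh38 by GSNAP, and HTSeqGenie gave the number per RefSeq gene from its exons. The tables deposited by the authors hold raw counts and RPKM values. Their rows are 58302 Ensembl gene identifiers, of which 57532 have a GENCODE 44 symbol, and not RefSeq genes. Which annotation gave the counts and the gene lengths behind RPKM is therefore not settled here. The labels describe both an unstranded low-input kit and a stranded kit without saying which was used.

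Gene symbols and positions were from GENCODE 44. Counts were fitted with edgeR 4.0.16 (R 4.3.3): filterByExpr, trimmed mean of M values, robust quasi-likelihood fit on all 12 libraries without a replicate term, and Benjamini-Hochberg adjustment. SE is the absolute log2 fold change divided by the square root of F. Other fits used DESeq2 1.42.0, quantile-normalized voom weights in limma 3.58.1 (the authors' own choice), other scalings and filters, only the groups compared, a replicate term, a GC correction (loess, span 0.4), each library left out, and log2(RPKM + 1) or log2(RPKM + 0.1). The fit was also run on simulated counts with known changes. These had the same dispersion for every gene and no GC bias, so the run cannot show how the fit handles the libraries here.

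The members and lists were chosen with earlier results of these data known. All members were named, and of each list the 3 smallest adjusted p-values of at most 0.05 per comparison. Likeness was computed over genes with a mean of at least 50 counts. *MIB1* and BMP targets served as checks. No sequence of *NRG1* is shown. A planned search of protein sequences was not made here.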

Additional observations from a re-analysis of the deposited data

How the results depend on the processing

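In all, 25 alternatives were computed, 12 of which left out 1 library. Of 744 values for single members, 709 kept their direction and side of the threshold. For KO against WT with BMP-on, the 0 members that passed became 1 without a filter on low counts, 1 with the replicate block and GC correction together, 2 with the GC correction and 3 with only the 2 groups compared, and 0 to 1 when single libraries were left out. With BMP-off it became 1 without a filter, and for the difference between responses 1 without a filter and 0 to 1 when single libraries were left out. In WT cells the count of 1 became 0 with log2(RPKM + 1) and no filter. The cause was not tested.

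Direction changed only for values that did not pass, of which *ERBB2* in KO cells passed in 1 fit. *EGFR* in WT cells was 0.0010 with the replicate block and GC correction and -0.085 to 0.12 with a library left out (0.041 without WT BMP-on replicate 3). *ERBB2* with BMP was -0.041 with the block and GC correction, -0.042 with the GC correction, and -0.0017 to 0.23 with a library left out in KO cells, and -0.071 to 0.041 with a library left out in WT cells. *AREG* with BMP-off was 0.0033 with log2(RPKM + 1), with or without a filter, 0.0051 with log2(RPKM + 0.1), and -0.33 to 0.14 with a library left out (0.096, 0.098 and 0.082 among them). With a library left out, *AREG* in KO cells ranged from -0.34 to 0.13, *HBEGF* in KO cells from -0.011 to 0.13, and the difference between responses for *HBEGF* from -0.13 to 0.015 (0.0084 without KO BMP-on replicate 1).

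Same-numbered libraries mostly did not deviate together (2 of 18 pairs had a correlation above 0.1), so no pairing by number was seen. Because libraries also differed in GC bias, this check cannot exclude a shared culture or day behind a number. With the replicate block alone the counts were 1 in WT cells, 3 in KO cells and 0 in the other comparisons. Over all tested genes, calls ranged from 284 to 1518 in WT cells, 2314 to 5323 in KO cells, 268 to 1275 with BMP-on, 2 to 233 with BMP-off and 2 to 318 for the difference between responses. Depth limits *AREG* and *TGFA*, at 15 to 47 counts, and the 4 members near 0.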
